A study of Mus musculus with 4 samples.

Results

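The proteasome genes described here are the genes whose array symbol begins with Psma, Psmb, Psmc, Psmd, Psme or Psmg and a digit and whose probe was detected (detection p below 0.01) on at least 1 of 4 arrays. Of 44 such genes with a probe, 40 met this rule, among 8341 genes detected in the same way of 16593 with a probe. In 39 of the 40 the probe used was detected on all 4 arrays. Just inside the threshold was Psmd9, with detection p-values of 0.01003 in the 1 condition where it missed and of 0.00376 or less elsewhere, and the nearest gene outside was Psmb8, with a lowest value of 0.1078. The symbol rule also takes in Psmc3ip, which encodes a meiotic recombination cofactor, and Psme3ip1, which encodes a protein that binds an activator; neither is a part of the proteasome, so 38 genes remain that encode its subunits, activators and assembly chaperones.

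The 26S proteasome degrades proteins that carry ubiquitin chains. Its 20S core is a barrel of alpha and beta rings with the proteolytic sites inside, and the 19S cap binds, unfolds and feeds in the substrates, using a ring of ATPases. Cells can exchange catalytic beta subunits for interferon-inducible ones and can replace the cap by the activators PA28 or PA200, and dedicated chaperones assemble the rings. Embryonic stem (ES) cells are known for high proteasome activity, and transcription of the subunit genes is known to be raised as a group by the factor NFE2L1 when proteasome activity falls short.

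Expression was measured in OG2 mouse ES cells, a line with a green fluorescent protein reporter driven by Pou5f1 (Oct4) regulatory sequence. All cultures had been kept on gelatin without feeder cells in 1 µM PD0325901 (an inhibitor of the ERK-activating kinase MEK), 3 µM CHIR99021 (an inhibitor of GSK3) and 1000 U/ml leukaemia inhibitory factor (LIF). They were then switched for 12 h to a medium that held either PD0325901 (PD) or 10 ng/ml FGF2, a growth factor that signals through MEK, and either LIF, which signals through JAK and STAT3, or 1 µM JAK inhibitor I (JAKi). The resulting conditions are called PD/LIF, FGF2/LIF, PD/JAKi and FGF2/JAKi below, values are given in this order, and the labels name no CHIR99021 after the switch. With a single Illumina bead array for every condition, no difference has a replicate. Since FGF2 takes the place of PD0325901 and the JAK inhibitor that of LIF, adding one agent and withdrawing the other cannot be told apart. Whether an array stands for 1 culture or a pool is not stated in the labels.

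Between 10626 and 10927 of 25697 probes were detected per array. All 10 ES cell markers listed, Pou5f1 and Dppa5a among them, were detected on all 4 arrays. Of 10 fibroblast and feeder markers with a probe, 6 were detected, and their summed normalized signal was 64.1% in FGF2/LIF, 87.1% in PD/JAKi and 59.5% in FGF2/JAKi of that in PD/LIF. Most of this sum comes from Acta2, the brightest of the 6, at a log2 signal of 11.49 in PD/LIF. The median log2 difference of the 6 markers from PD/LIF was −0.92 in FGF2/LIF and −0.92 in PD/JAKi. Dcn, a matrix proteoglycan gene of fibroblasts, stood at a log2 signal of 8.86 in PD/LIF and between 6.45 and 6.70 on the other arrays. The array of PD/LIF is the one on which many proteasome genes also had their highest value, and the part of these markers in the results below was not tested. In bulk RNA, fewer cells of a type and less RNA per cell cannot be told apart.

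Proteasome genes moved little between the 4 conditions. The additive limma fit estimates both switches together. Its error joins the gene's own departure from additivity (1 residual degree of freedom) to a variance pooled over all genes (7.01 prior degrees of freedom). The standard errors below are therefore mostly the pooled variance and not the gene's own. In this fit 0 of the 40 passed an adjusted p of 0.05 for FGF2 against PD, where 0.24% of all genes tested did. For JAKi against LIF 0 of 40 passed, where 0.288% of all genes did. At an unadjusted p below 0.05 the counts were 0 (11.5% of all genes) and 1 (10.6%). Psme2 alone differed at least 1.5-fold in any of the 4 pairwise differences, against 20.3% of all genes. None of the 40 did so without background correction or with a background offset of 50. The share of all genes was not counted in these 2 settings, so that result has no share to be set against. By difference, 1.5-fold was reached by 0 of the 40 for FGF2 beside LIF (9.48% of all genes), 0 for FGF2 beside JAKi (4.68%), 1 for JAKi beside PD (9.42%) and 0 for JAKi beside FGF2 (4.68%). Among genes with a mean log2 signal above 9, 0 of 28 proteasome genes did so, against 6.62% of 1706 genes. The range of a gene over the 4 arrays had a median of 0.28 log2 units for the proteasome genes (0.24 for the 28 brighter ones) and of 0.41 for all genes (0.28 for the 1706). Missing the threshold in a design of this size does not show that a gene was equal in all conditions. The p-values rest on departures from additivity on these arrays, largely pooled over genes, and not on a spread between replicates.

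Within these small differences, the array of PD/LIF was most often the highest. It held the highest value of 20 of the 40 genes (29.8% of all genes) and the lowest of 3 (29.8%). FGF2/JAKi held the highest value of 6 (21.0%). With FGF2 in place of PD beside LIF, 29 of 40 genes were lower (50.7% of all genes), with a median log2 difference of −0.09 against −0.01 for all genes. With JAKi in place of LIF beside PD, 32 of 40 were lower (49.7%), with a median of −0.08 against 0.00, and 24 genes were lower in both of these differences, which share the array of PD/LIF (34.0% of all genes). The other 2 differences were nearer to balance. FGF2 beside JAKi left 20 genes below 0 (50.9%, median 0.00), and JAKi beside FGF2 left 22 (47.8%, median −0.03). Averaged over both backgrounds, FGF2 left 25 of 40 below 0 (51.0%, median −0.06) and JAKi 27 of 40 (48.1%, median −0.04). The summed normalized signal of the 40 genes was 94.3% in FGF2/LIF, 95.4% in PD/JAKi and 93.4% in FGF2/JAKi of that in PD/LIF. The size of the shift depended on the scaling. With median scaling in place of quantile normalization the medians were −0.17 for FGF2 beside LIF and −0.24 for JAKi beside PD, and without normalization, relative to all genes, −0.13 and −0.20.

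**Figure D1:**
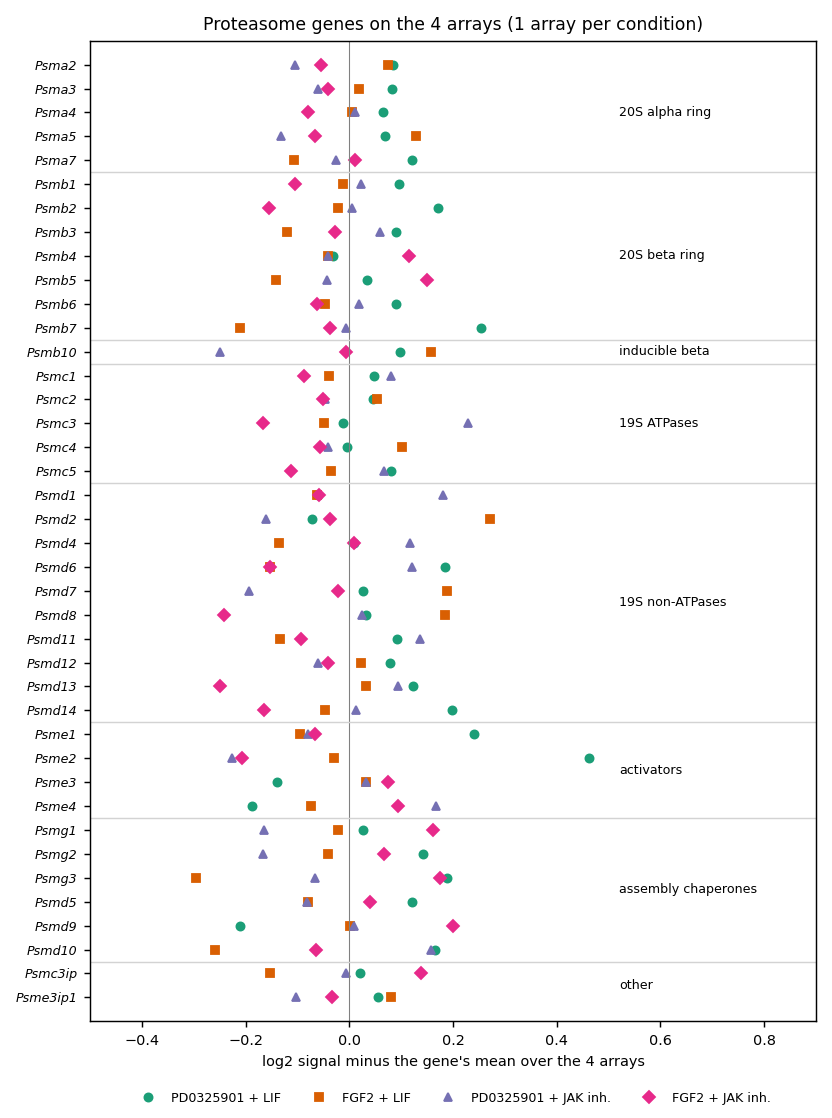
Normalized log2 signal of the 40 proteasome genes on each of the 4 arrays, as the difference from each gene's mean over the arrays, grouped by role. PD/LIF (circles) held the highest value of 20 genes, and Psme2 had the widest range, 0.69 log2 units.

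The shift was compared with other large complexes on the same arrays. The 71 mitochondrial ribosomal protein genes had a median of −0.14 for FGF2 beside LIF, with 55 of 71 lower (50.7% of all genes). For JAKi beside PD their median was −0.19, with 60 of 71 lower (49.7% of all genes). Both medians were further from 0 than those of the proteasome genes. The 58 cytosolic ribosomal protein genes had medians of −0.06 and −0.01, and the 8 genes of the chaperonin TRiC −0.03 and 0.05. A lower value on the arrays of the single switches was thus also seen in the mitochondrial ribosomal genes, and all of these sets share the same arrays.

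**Figure D2:**
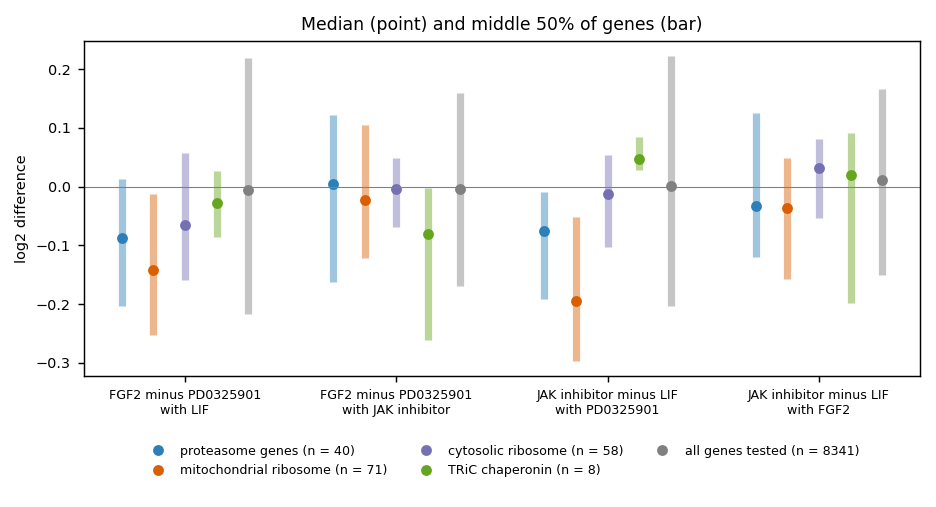
Log2 differences (vertical axis) of proteasome genes, both kinds of ribosomal protein genes, TRiC genes and all genes tested in the 4 comparisons. Points are medians and bars span the middle 50% of genes; the proteasome median lies at −0.09 and −0.08 in the differences taken from the array of PD/LIF, between the medians of the mitochondrial and the cytosolic ribosome.

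The alpha ring of the 20S core, which forms the gate of the barrel, was represented by Psma2, Psma3, Psma4, Psma5 and Psma7. Psma2 stood at log2 signals of 12.79 in PD/LIF, 12.78 in FGF2/LIF, 12.60 in PD/JAKi and 12.65 in FGF2/JAKi. Psma5 stood at 11.94, 12.00, 11.74 and 11.80 in the same order of conditions. Both were lower on the arrays of JAKi, with mean log2 differences of −0.16 ± 0.15 (SE, adjusted p = 0.736 in limma) and −0.20 ± 0.15 (adjusted p = 0.668). All 5 alpha genes were lower with JAKi beside PD (median −0.15; 49.7% of all genes lower), and 4 of 5 beside FGF2, Psma7 being higher there by 0.12. None of the 5 had a range above 0.26. Psma1 and Psma6, which encode obligatory alpha subunits, were not detected on any array: their deposited signals lay between 74.4 and 78.1 and between 74.8 and 83.2, below the median signal of each array, so these probes give no measure of the genes.

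In the beta ring, the subunits Psmb5, Psmb6 and Psmb7 carry the chymotrypsin-like, caspase-like and trypsin-like sites. All 7 genes of this ring were lower with FGF2 beside LIF (median −0.18, with 50.7% of all genes lower). All 7 were also lower with JAKi beside PD (median −0.07, with 49.7% of all genes lower). Psmb4 gave −0.01 in both differences. With JAKi beside PD, Psmb3, Psmb4, Psmb5 and Psmb6 each lay within the bead standard error of the difference. Psmb7 stood at 12.20 in PD/LIF, 11.73 in FGF2/LIF, 11.94 in PD/JAKi and 11.91 in FGF2/JAKi. It was thus highest in PD/LIF, 1.38-fold above FGF2/LIF, and its mean difference for FGF2 was −0.25 ± 0.17 (adjusted p = 0.593 in limma). Its other detected probes gave −0.42 and −0.23 for FGF2 beside LIF, where the brightest gave −0.47, but −0.37 and 0.03 beside JAKi, where the brightest gave −0.03. Psmb6 ranged over 0.15 log2 units, at 12.08, 11.94, 12.01 and 11.93 in the order PD/LIF, FGF2/LIF, PD/JAKi and FGF2/JAKi. Psmb5 was at 9.40, 9.22, 9.32 and 9.51 in that order. Its highest value, unlike that of Psmb6, was in FGF2/JAKi, as was that of Psmb4, a subunit with no catalytic site, at 13.04 against 12.88 to 12.89 elsewhere. Psmb2 was lower for each switch, with mean differences of −0.18 for FGF2 and −0.15 for JAKi, and its second probe gave −0.20 and −0.15.

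Sequence around the transcription start was taken for the catalytic genes because NFE2L1 is known to act on subunit genes through antioxidant response elements. The windows, from RefSeq (GRCm38.p6) and reaching from 250 bases before to 50 after the annotated start, are those of Psmb5 (chr14:54617946-54618245, minus strand) and Psmb6 (chr11:70525107-70525406, plus strand). Capitals mark TGACNNNGC, the element's core, searched on both strands.
Psmb5: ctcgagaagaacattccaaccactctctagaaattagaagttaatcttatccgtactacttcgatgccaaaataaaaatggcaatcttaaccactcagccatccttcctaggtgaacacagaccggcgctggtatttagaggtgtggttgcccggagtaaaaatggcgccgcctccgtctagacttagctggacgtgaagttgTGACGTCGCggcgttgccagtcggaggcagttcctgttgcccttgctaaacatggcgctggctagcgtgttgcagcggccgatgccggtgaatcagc
Psmb6: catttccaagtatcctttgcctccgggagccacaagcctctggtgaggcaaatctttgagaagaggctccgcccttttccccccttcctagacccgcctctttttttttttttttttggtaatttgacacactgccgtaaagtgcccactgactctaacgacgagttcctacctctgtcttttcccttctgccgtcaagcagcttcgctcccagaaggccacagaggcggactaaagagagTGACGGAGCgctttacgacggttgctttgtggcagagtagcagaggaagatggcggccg
The match in Psmb5 lies 47 to 39 bases before the start and that in Psmb6 9 to 1 bases before it. Among the 34 proteasome genes whose windows were searched, 5 held this core (14.7%): Psmb5, Psmb6, Psmd12, Psmd9 and Psme4. Over all 32851 windows of that length, which include 1 chromosome left out for the proteasome genes, the share was 12.4%. A proteasome gene counted if any of its windows held the core, so one share is of genes and the other of windows. A match is a description of the letters and does not show a site in use, and these windows begin at annotated starts that may not be the ones used in ES cells.

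Of the inducible beta subunits examined here, Psmb10, which takes the place of Psmb7 in the immunoproteasome, was the one detected. It stood at 7.85 in PD/LIF, 7.91 in FGF2/LIF, 7.50 in PD/JAKi and 7.75 in FGF2/JAKi. Both arrays with JAKi were below both arrays with LIF, with a mean difference of −0.26 ± 0.16 (adjusted p = 0.585 in limma). The second probe gave −0.41 beside PD and 0.02 beside FGF2, where the first gave −0.35 and −0.16. Psmb8, which takes the place of Psmb5, was not detected on any array, with deposited signals of 85.8, 80.9, 74.5 and 90.8 in the order of conditions used above. A probe below detection says that its signal was not above background, not that the gene was silent.

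The 19S ATPases, the motor that unfolds substrates, had a median range of 0.17 log2 units over the 5 detected genes, the lowest of the role groups. Psmc1, Psmc2, Psmc4 and Psmc5 had ranges of 0.10 to 0.19. Psmc3 was the exception: it stood at 10.79, 10.75, 11.03 and 10.63 in the order PD/LIF, FGF2/LIF, PD/JAKi and FGF2/JAKi. Its highest value was thus with both inhibitors, and the difference for FGF2 was −0.39 beside JAKi and −0.04 beside LIF. All 5 ATPase genes were lower with FGF2 beside JAKi (median −0.17; 50.9% of all genes lower). Psmc6 was not detected, at deposited signals of 78.7 to 83.1.

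The 10 detected non-ATPase subunits of the cap include ubiquitin receptors and the deubiquitinase of the lid. With FGF2 in place of PD the mean difference was below 0 for 8 of them (51.0% of all genes), with a median of −0.12. Psmd6, a lid subunit, stood at 5.96 in PD/LIF, 5.62 in FGF2/LIF, 5.89 in PD/JAKi and 5.62 in FGF2/JAKi. Both FGF2 arrays lay below both PD arrays, with a mean difference of −0.31 ± 0.15 (unadjusted p = 0.082, adjusted p = 0.479 in limma), at deposited signals of 113.4 to 125.5. Without background correction this mean was −0.14, and with an offset of 50 it was −0.19. Psmd11, a scaffold subunit of the lid, gave FGF2 differences of −0.23 beside LIF and −0.23 beside JAKi on its brightest probe, while its dimmer probe gave −0.31 and 0.13. Psmd14, the deubiquitinase, was at 8.86, 8.62, 8.68 and 8.50 in the same order, highest in PD/LIF and lowest in FGF2/JAKi, with mean differences of −0.21 for FGF2 and −0.15 for JAKi. Psmd13 followed the same order of extremes at 11.67 and 11.30.

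Other cap subunits went different ways. Psmd8 stood at 9.69, 9.84, 9.68 and 9.42 in the order PD/LIF, FGF2/LIF, PD/JAKi and FGF2/JAKi. Its extremes were the 2 arrays with FGF2, and the difference for JAKi was −0.43 beside FGF2 and −0.01 beside PD. Psmd1, the large scaffold of the base, was at 7.80 on 3 arrays and at 8.04 in PD/JAKi. Psmd4, a ubiquitin receptor, gave mean differences of 0.13 for JAKi and −0.13 for FGF2. Psmd7, a lid subunit, gave mean differences of 0.17 for FGF2 and −0.22 for JAKi on its brightest probe, and 0.10 and −0.03 on the other. These means hide opposed single differences. For FGF2 beside LIF the brightest probe gave 0.16 and the other −0.25, and for JAKi beside FGF2 −0.21 and 0.32. For Psmd2, the second scaffold of the base, the 2 detected probes were opposed: the brighter gave 0.34 and 0.12 for FGF2 beside LIF and beside JAKi, and the other −0.56 and −0.70. No direction is given for Psmd2, nor for Psmd7 in the 2 differences where its probes were opposed.

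**Figure D3:**
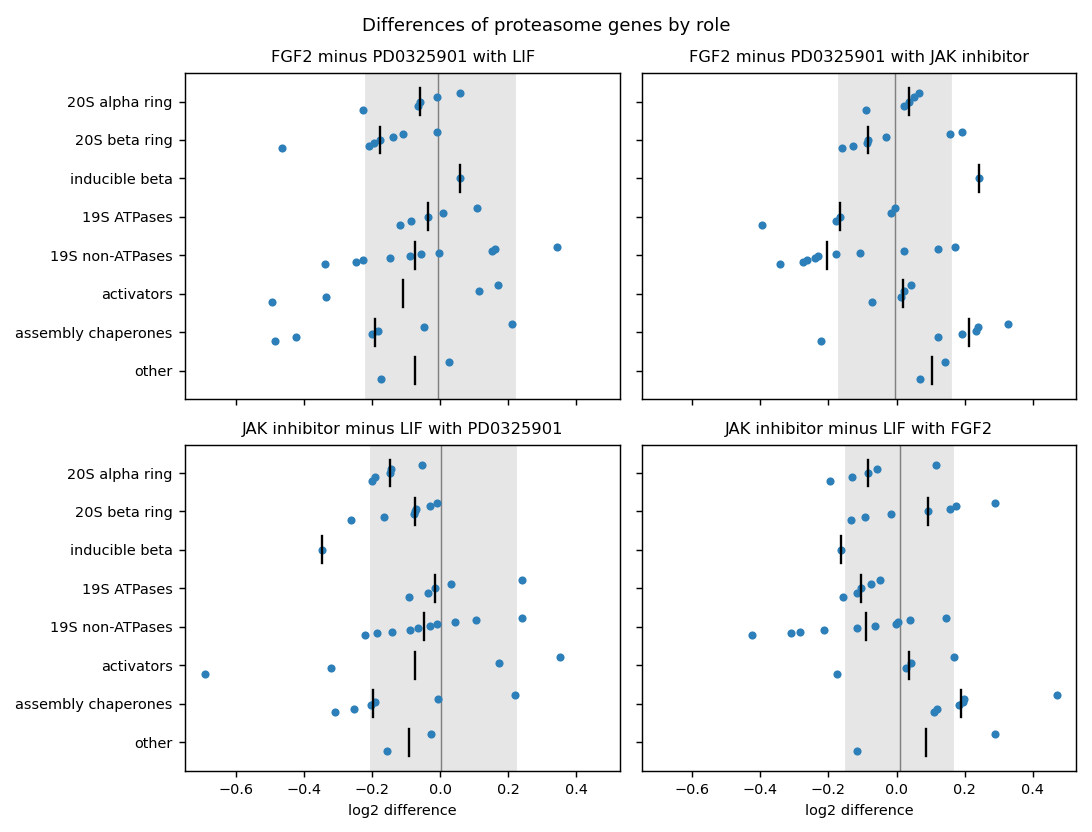
Log2 differences of the 40 proteasome genes in the 4 comparisons, by role. Points are genes, black ticks are group medians, the grey band spans the middle 50% of all 8341 genes and the grey line is their median; the assembly chaperones have medians below 0 in the left panels and above 0 in the right panels.

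The activators held the widest range. Psme1 and Psme2 encode the alpha and beta subunits of PA28, an interferon-inducible ring that opens the core for peptide products, and they lie on chromosome 14 with 1 protein-coding gene between them in the RefSeq gene table. Psme2 stood at 7.42 in PD/LIF, 6.93 in FGF2/LIF, 6.73 in PD/JAKi and 6.76 in FGF2/JAKi. It was highest in PD/LIF, and the other 3 arrays lay close together. Against PD/LIF it was 1.41-fold lower in FGF2/LIF and 1.61-fold lower in PD/JAKi, a step of at least 1.5-fold that 4.54% of all genes also showed downwards. Without background correction the mean difference for JAKi was −0.29, where it was −0.43 with it, and no difference of Psme2 reached 1.5-fold. The mean difference for JAKi was −0.43 ± 0.18 (unadjusted p = 0.0413, adjusted p = 0.454 in limma), that for FGF2 −0.24 ± 0.18 (adjusted p = 0.63), and the departure from additivity was 0.51. The RefSeq gene table also lists Psme2b, a copy of Psme2, and signal from it cannot be told apart here.

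Psme1 had the same shape on its brightest probe, at 9.84, 9.51, 9.52 and 9.54 in the order PD/LIF, FGF2/LIF, PD/JAKi and FGF2/JAKi. PD/LIF was the high array and the other 3 differed by at most 0.03. The second probe was also highest there, at 8.76, but declined further to 8.63, 8.54 and 8.41 over the same order. The mean differences of the brightest probe were −0.16 ± 0.17 for FGF2 (adjusted p = 0.739 in limma) and −0.15 ± 0.17 for JAKi (adjusted p = 0.775). Of the 6 detected fibroblast and feeder markers, Dcn, Col6a1, Lum, Thy1 and Col1a1 were also highest in PD/LIF. Their shapes differed: Col1a1 stood at 6.70, 6.15, 6.54 and 6.69, and Lum at 6.51, 4.56, 5.35 and 4.66. Acta2, the marker that is also a smooth muscle actin gene, was highest in PD/JAKi, at 11.49, 11.02, 11.51 and 10.89. The part of these markers in the values of Psme1 and Psme2 was not tested.

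The windows around the starts of this pair are shown because both genes are known as interferon targets and had the same high array. They come from RefSeq (GRCm38.p6), for Psme1 chr14:55578244-55578543 on the plus strand and for Psme2 chr14:55590972-55591271 on the minus strand, the first of its 2 windows by position. Capitals mark the core of the interferon-stimulated response element, a pair of GAAA blocks with 2 free bases between them, searched on both strands and read here on the opposite strand.
Psme1: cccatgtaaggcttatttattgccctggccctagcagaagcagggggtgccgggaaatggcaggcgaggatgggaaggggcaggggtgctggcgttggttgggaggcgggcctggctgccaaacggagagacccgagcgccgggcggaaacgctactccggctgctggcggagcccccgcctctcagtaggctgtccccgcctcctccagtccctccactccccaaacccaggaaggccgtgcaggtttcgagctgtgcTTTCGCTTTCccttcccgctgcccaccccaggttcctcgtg
Psme2: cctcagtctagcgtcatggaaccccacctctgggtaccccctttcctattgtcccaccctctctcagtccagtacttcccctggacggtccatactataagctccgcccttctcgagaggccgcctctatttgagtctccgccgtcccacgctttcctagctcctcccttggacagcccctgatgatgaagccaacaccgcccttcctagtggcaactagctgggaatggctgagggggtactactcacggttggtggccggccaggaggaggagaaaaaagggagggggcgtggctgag
The match in Psme1 spans bases 9 to 18 after the annotated start, and neither window of Psme2 holds any of the 4 motifs searched. This core was found in 4 of 34 proteasome genes (11.8%), Psmb3, Psmd4, Psmd9 and Psme1, and in 3.44% of all windows. Here too a gene counted if any of its windows matched, and the other share is per window. TTCNNNGAA, the core bound by STAT factors, was in Psmd2 and Psmg1 (5.88% of the 34 genes; 8.3% of all windows). CCAAT, bound by NF-Y, was in 12 of the 34 (35.3%; 37.4% of all windows).

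The other activators had the opposite pattern. Psme3, which encodes the nuclear PA28 gamma, stood at 10.22 in PD/LIF, 10.39 in FGF2/LIF, 10.39 in PD/JAKi and 10.44 in FGF2/JAKi. Psme4, which encodes PA200, stood at 11.13, 11.24, 11.48 and 11.41. Both were lowest on the array where Psme1 and Psme2 were highest. Psme4 was higher on both arrays with JAKi, by 0.26 ± 0.16 on average (adjusted p = 0.579 in limma), or by 0.17 with median scaling, and its dimmer probe gave 0.04. Psme3ip1, whose product binds PA28 gamma, ranged over 0.18 log2 units, and Psmc3ip, the recombination cofactor gene, stood at 9.27, 9.10, 9.24 and 9.39.

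**Figure D4:**
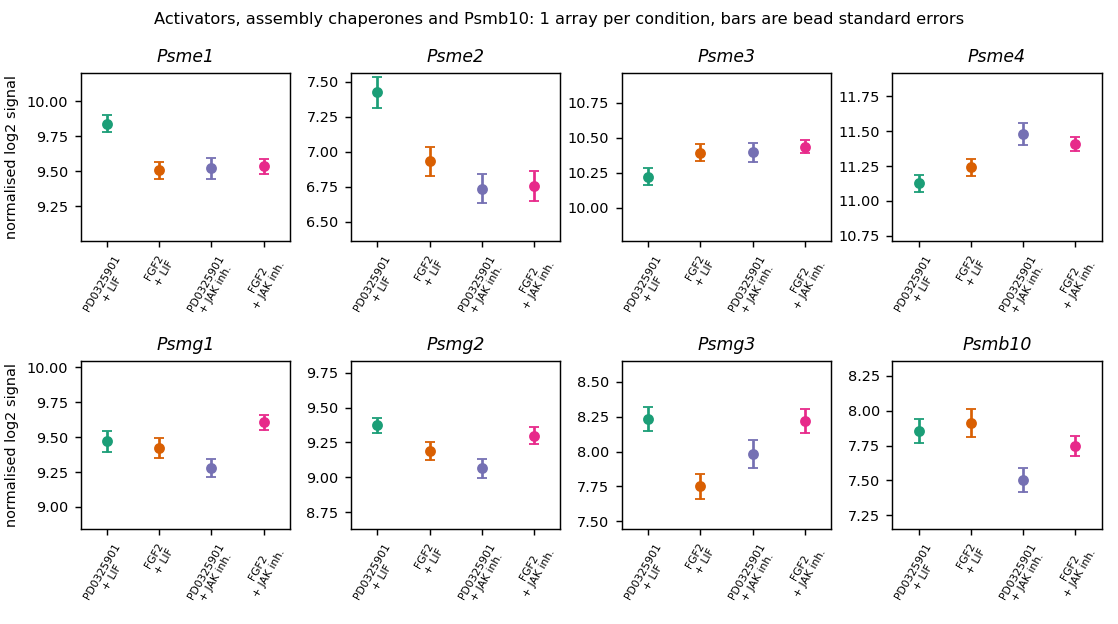
Normalized log2 signal of 4 activators, 3 assembly chaperones and Psmb10 on the 4 arrays; bars are bead standard errors of the 1 array per condition, and each panel spans 1.2 log2 units. Psme1 and Psme2 are highest in PD/LIF, Psme3 and Psme4 are lowest there, and Psmg3 is lowest in FGF2/LIF.

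The assembly chaperones had the largest median departure from additivity of the role groups. Psmg1 and Psmg2 encode the pair that starts the alpha ring, and Psmg3 encodes a partner that acts on the ring later. Psmg3 stood at 8.23 in PD/LIF, 7.75 in FGF2/LIF, 7.98 in PD/JAKi and 8.22 in FGF2/JAKi. Each single switch gave a lower value and the double switch the starting one: FGF2 gave −0.48 beside LIF and 0.24 beside JAKi, a departure of 0.72, the largest of the 40 genes. Psmg2 stood at 9.37, 9.19, 9.06 and 9.30 in the same order, with a departure of 0.42 on this probe and 0.52 on the other. Psmg1 was at 9.47, 9.42, 9.28 and 9.60, with a departure of 0.37.

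Psmd5, Psmd9 and Psmd10 encode chaperones of the ATPase ring. Psmd5 shared its highest array with Psmg2, at 7.67, 7.47, 7.47 and 7.59, with a departure of 0.32. Over the 6 detected chaperone genes the median departure was 0.35, against 0.05 for the 40 genes (0.16 with median scaling) and 0.00 for all genes, and 5 of 6 were above 0 (50.6% of all genes). With 1 array per condition a departure has no error of its own, and every departure uses all 4 arrays.

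Psmd10, which encodes gankyrin, stood at 8.29 in PD/LIF, 7.86 in FGF2/LIF, 8.28 in PD/JAKi and 8.06 in FGF2/JAKi. Both FGF2 arrays lay below both PD arrays. The mean difference of −0.32 ± 0.16 was the lowest of the 40 genes for FGF2 (unadjusted p = 0.0742, adjusted p = 0.47 in limma), and its other 2 probes gave −0.41 and −0.53. Psmd9 was at 4.82, 5.04, 5.04 and 5.23 on a probe that was not well above background in PD/LIF. Its second probe, detected on the 2 arrays with LIF, gave −0.58 and −0.53 for JAKi beside PD and beside FGF2, where the first gave 0.22 and 0.20, so no direction is given.

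Probes of the same gene set the limit on what single genes show. In the 15 genes with more than 1 detected probe there were 17 further probes, which share the arrays and are no replicates. For FGF2 beside LIF 13 of 17 had the sign of the brightest probe, for FGF2 beside JAKi 11, for JAKi beside PD 13 and for JAKi beside FGF2 8. The median gap between probes of a gene lay between 0.12 and 0.18 log2 units in the 4 differences, and the widest gap in each was 0.90, 0.82, 0.80 and 0.72. Those gaps belong to Psmd2 in both FGF2 differences and to Psmd9 in both JAKi differences.

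**Figure D5:**
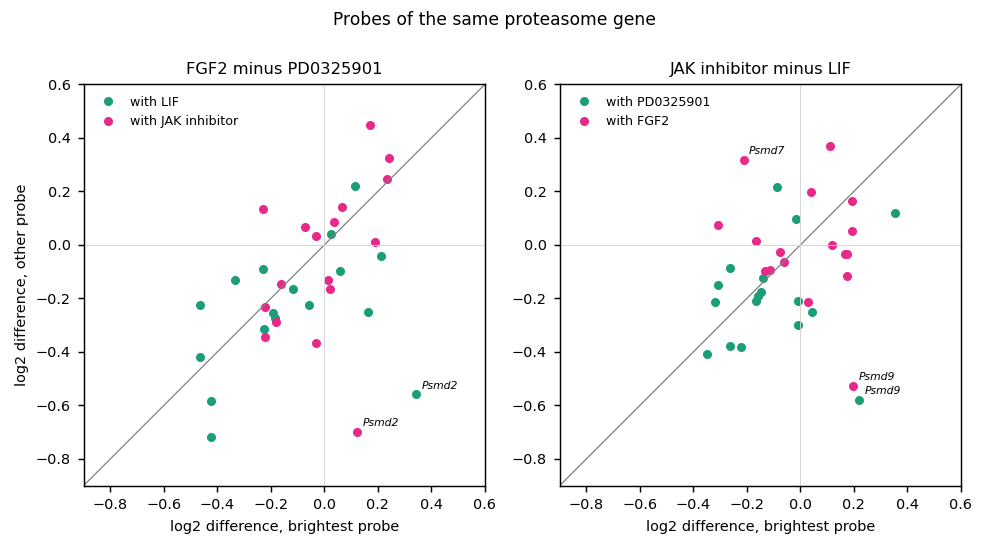
Log2 differences of the brightest probe (horizontal axis) against those of the other detected probes (vertical axis) of the same proteasome gene, for 17 further probes of 15 genes; the diagonal marks equal values. Psmd2, Psmd7 and Psmd9 lie farthest from it.

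Genes that act with the proteasome were taken from lists. Of 10 detected proteasome-associated genes, 0 passed the additive limma fit for either switch (0.24% and 0.288% of all genes for FGF2 and JAKi), and 0 had an unadjusted p below 0.05 for either (11.5% and 10.6%). The deubiquitinase gene Uchl5 stood at 8.36 in PD/LIF, 7.98 in FGF2/LIF, 7.66 in PD/JAKi and 7.90 in FGF2/JAKi, again highest in PD/LIF. Ube3c, a ubiquitin ligase that extends chains on proteasome-bound substrates, was lowest there, at 8.73 against 9.29, 9.36 and 9.36. Pomp, the chaperone that closes the core, gave 0.14 ± 0.15 for FGF2 and −0.09 ± 0.15 for JAKi. Of 10 detected genes of ubiquitin supply, 0 passed for either switch, with 1 below an unadjusted p of 0.05 for FGF2 and 0 for JAKi, near the shares of all genes (11.5% and 10.6%). Vcp, the unfolding ATPase upstream of the proteasome, gave a mean of 0.14 for each.

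Among 7 detected regulators of proteasome genes, 1 passed for JAKi and 0 for FGF2: Stat3 fell by 1.71 ± 0.15 on the log2 scale with JAKi (adjusted p = 0.00458 in limma). Nfe2l1, the activator of subunit genes, stood at 10.21 in PD/LIF, 10.21 in FGF2/LIF, 10.76 in PD/JAKi and 10.58 in FGF2/JAKi. Both arrays with JAKi were above both with LIF, by 0.46 ± 0.16 on average (unadjusted p = 0.0187, adjusted p = 0.387), while the median of the 40 proteasome genes for the same switch was −0.04. Nfe2l1 protein is activated after translation, and protein was not measured. Of 5 detected genes of interferon-linked antigen presentation, 0 passed for either switch, with 1 below an unadjusted p of 0.05 for FGF2 and 2 for JAKi. The shares of all genes were 0.24% and 0.288% at the adjusted and 11.5% and 10.6% at the unadjusted threshold. Irf9 stood at 6.19, 5.95, 4.93 and 5.43 in the same order of conditions and B2m at 8.87, 8.19, 8.37 and 7.87. Both were highest in PD/LIF as Psme1 and Psme2 were, and so was Calr (29.8% of all genes). Highest in FGF2/LIF instead were Tapbp, at 4.95, 5.14, 4.75 and 5.10, and Irf1, at 8.41, 8.48, 8.25 and 8.34. Tapbp was detected on 3 arrays, and its value in PD/JAKi lies below the detection limit there (4.86). Irf1 differed by at most 0.16 between PD/LIF and the other arrays, and Tap1 was not detected.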

How the data were processed

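Total RNA of 4 samples was amplified and labelled with Cy-3, per the labels' protocols. BeadStudio was used, per the submitters' processing notes; version and settings were not given in the sources used here. The file headers show that the deposited tables hold, for each probe, a signal (intensity), its bead standard error and a detection p-value. The lowest signals lay between 64.4 and 71.2 and the medians differed between arrays, so the deposited intensities were read as neither background-subtracted nor normalized. The authors' value table, of whole-number intensities, was an alternative (missing values as 0, plus 16).

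Signals were corrected with limma (3.58.1, R 4.3.3) nec from the detection p-values (offset 16), log2-transformed and then quantile-normalized. These log2 values are computed from the deposited intensities. A probe was kept (12089 of 25697) if any array gave it a detection p under 0.01, and the brightest stood for its gene; symbols came from the probe annotation, updated through RefSeq (GRCm38.p6), and 23978 probes had 1 symbol, 0 several and 1719 none. Bead standard errors on the log2 scale are the deposited error over the corrected signal.

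The 4 pairwise differences have no test. The additive limma fit (lmFit, eBayes, Benjamini-Hochberg over 8341 genes) has 1 residual degree of freedom and assumes that the switches add. It was tested on simulated data in which the switches add by construction, so that assumption itself was not tested. The number of arrays limits its precision. Genes were named by size of difference, by role and by incomplete detection (22 genes); other genes named were chosen after their values were seen, and so was the choice of promoter windows and motifs. A gene of this family is not reported here. The members and lists were chosen with earlier results of these data known. Alternatives were the background correction, normalization, detection filter, value table, probe choice and eBayes trend.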

Additional observations from a re-analysis of the deposited data

Results flagged for a closer look

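On the brightest probe of each gene, Psmg3 was the proteasome gene whose differences for the same switch had opposite directions in the 2 backgrounds. Each exceeded 0.232 log2 units, the spread between 2 arrays that the additive fit estimates. For FGF2 in place of PD0325901 it gave −0.48 beside LIF and 0.24 beside the JAK inhibitor, and for the JAK inhibitor in place of LIF −0.25 beside PD0325901 and 0.47 beside FGF2. Both pairs give the same departure of 0.7238, because they use the same 4 arrays. The difference between the backgrounds was not tested, and Psmg3 has 1 probe. Dimmer probes of other genes had this pattern too. For FGF2 beside LIF and beside the JAK inhibitor, that of Psmd7 gave −0.25 and 0.45 and that of Psmg2 −0.27 and 0.24. For the JAK inhibitor the same Psmd7 probe gave −0.38 beside PD0325901 and 0.32 beside FGF2. The brightest probe of Psmd7 did not have it, at 0.16 and 0.17 for FGF2.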

How the results depend on the processing

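Under each of the alternatives run, 0 proteasome genes passed an adjusted p of 0.05 for either switch, also with an eBayes intensity trend, where 360 and 296 of all genes did. Over the alternatives, the count of all genes passing ranged from 0 to 444 for FGF2 and from 2 to 346 for the JAK inhibitor. Where few genes or none passed at all, a count of 0 proteasome genes says little. Counts at an unadjusted p below 0.05 ranged from 0 to 4 for each switch. The share of all genes at that threshold was counted under the main processing only, at 11.5% for FGF2 and 10.6% for the JAK inhibitor. With FGF2 beside LIF the median ranged from −0.17 with median scaling to −0.08 with the value table of the authors, and with the JAK inhibitor beside PD0325901 from −0.24 with median scaling to −0.07. Without normalization between arrays the median of all genes itself moved by 0.14, 0.42, −0.08 and 0.20 in the 4 differences, so values there were taken relative to it. The 1 gene past 1.5-fold, Psme2, was within 1.5-fold when the background was left in and when the nec offset was 50. With the mean over detected probes, Psmd2 reversed to −0.20 for FGF2 and Psmd9 to −0.17 for the JAK inhibitor, since their probes are opposed. A sign change of an uncalled gene was counted as a reversal where a value was at least 1 standard error from 0; there were 2. Leaving out Psmc3ip and Psme3ip1 was added after the data were seen and left the medians of the single switches from PD0325901 with LIF at −0.09 and −0.08. No paired analysis was possible because each condition has 1 array, and without 1 array the additive fit has no residual degree of freedom, so no array was left out.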
